A study of Mus musculus with 6 samples.

Results

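Bone morphogenetic protein (BMP) ligands are secreted signals of the TGF-beta superfamily, and their genes Bmp2, Bmp3, Bmp4, Bmp5, Bmp6 and Bmp7 were examined in colon of young mice with a conditional deletion of Ihh, the gene of Indian hedgehog, aimed at the epithelium. The members were picked by gene symbol. Each of the 6 had 1 row on the array, out of 19938 genes that were measured and tested. Whole colon had been taken from 3 VilCre;Ihhflox/flox mice (mutants 1 to 3) and from 3 control mice (controls 1 to 3), and mutant and control of 1 number were littermates. In the mutants, both floxed copies of Ihh are open to Cre, and VilCre places this recombinase under control of the villin promoter, which drives expression in gut epithelial cells. The labels call the controls wild type and do not say whether they carry floxed alleles or Cre. The design text gives postnatal day 12 for all mice, whereas the growth protocol gives day 9 to day 12. Affymetrix Mouse Gene 1.0 ST arrays were used, 1 per mouse, and levels are given as log2 RMA expression.

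BMP ligands are made as precursors, cut by furin-like proteases and released as dimers. They bind paired type I and type II serine/threonine kinase receptors, and the receptors phosphorylate Smad1, Smad5 and Smad9, which enter the nucleus with Smad4 and induce genes such as the Id family. In the gut, epithelial hedgehog ligands act on the mesenchyme beneath, which is a main source of BMP ligands. BMP signals from that mesenchyme restrain crypt formation and stem cell activity, and antagonists near the crypt base hold them back. By sequence, Bmp2 and Bmp4 form one subgroup, Bmp5, Bmp6 and Bmp7 another, and Bmp3 stands apart and often opposes the rest.

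Measures of the deletion came from the ligand gene itself and from hedgehog target genes. The Ihh value was 8.37, 8.22 and 8.22 in mutants 1 to 3, against 8.50, 8.54 and 8.68 in controls 1 to 3. Every mutant lay below every control, but the difference of -0.30 ± 0.09 (SE) did not pass the test (limma adjusted p = 0.139). The row summarises probes over the transcript and the labels do not give the deleted part, so it checks the genotype only in part. Of 16 measured genes of the hedgehog pathway and its targets, 6 fell, 0 rose and 10 did not pass in the limma fit, among the last Gli2 (-0.10) and Gli3 (-0.33), the other GLI factors. The changes were -1.44 ± 0.09 for Ptch1, the hedgehog receptor, -2.16 ± 0.13 for Hhip, an inhibitor that binds hedgehog ligands, and -0.78 ± 0.08 for Gli1, a transcription factor of the pathway (limma adjusted p = 0.000493, 0.000493 and 0.00355).

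The ligand genes Bmp5, Bmp4 and Bmp2 fell, and were 3.71-fold, 2.05-fold and 1.81-fold lower in mutants than in controls. Thus 3 of 6 members fell, 0 rose and 3 did not pass (limma with the litter as a block, adjusted p under 0.05 over all 19938 genes), where 2.11% of all genes fell, 1.66% rose and 3.77% passed in either direction. The mutants lay below all controls for 5 members and above all controls for 1, Bmp3. Among all genes, 9.78% had every mutant below every control and 10.0% had every mutant above. Separation of the groups was therefore common across the array, and for Bmp6 and Bmp3 it was narrow.

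**Figure D1:**
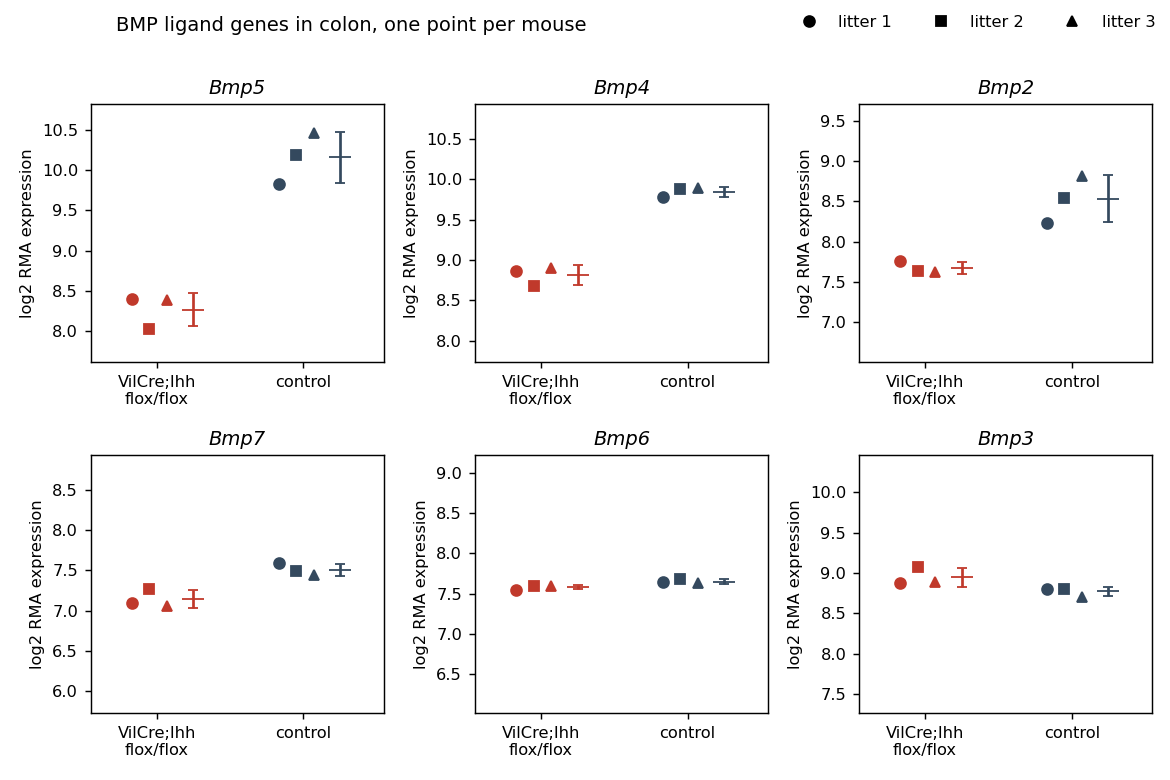
Log2 RMA expression (y axis) of each BMP ligand gene in mutant (left, red) and control (right, dark) colon; symbols mark the litter, and the bar beside each group is the mean ± SD (n = 3). All panels span the same number of log2 units. For Bmp5, Bmp4 and Bmp2 the mutant points lie well below the control points, by at least 1.44, 0.88 and 0.48, while those of Bmp6 are 0.028 apart at the nearest.

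Bmp4, the ligand most often used to mark the BMP-producing mesenchyme of the gut, had 8.86, 8.67 and 8.90 in mutants 1 to 3 and 9.78, 9.88 and 9.89 in controls 1 to 3. The groups were 0.88 apart at their nearest points, and the spread within each was small (SD 0.121 in mutants and 0.0618 in controls, n = 3 each). The change was -1.04 ± 0.09 on the log2 scale (95% interval -1.24 to -0.83, limma adjusted p = 0.00159). The mutant was lower in every litter, by 0.91 in litter 1, 1.20 in litter 2 and 0.99 in litter 3 on the log2 scale. Among all 19938 genes Bmp4 ranked 49 by size of fall, and 43 by p-value with rises and falls ranked together.

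Bmp2, the closest relative of Bmp4 and in adult gut made by surface epithelium as well as by cells of the wall, had 7.76, 7.64 and 7.63 in mutants 1 to 3, against 8.24, 8.54 and 8.82 in controls 1 to 3. The mutants were nearly alike (SD 0.0714) and the controls were spread out (SD 0.289, n = 3 each), with control 1 lowest. The change was -0.86 ± 0.13 (95% interval -1.16 to -0.56, limma adjusted p = 0.0138). Relative to its size it was the least even of the 3 falls across litters, at -0.48 in litter 1, -0.91 in litter 2 and -1.19 in litter 3. It still passed with any 1 litter left out, at -1.05 without litter 1, -0.83 without litter 2 and -0.69 without litter 3. These fits keep fewer residual degrees of freedom, so passing leans more on the variance shared across genes.

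Bmp5, a ligand of the other main subgroup that is expressed in mesenchyme, had the largest change of the 6. Its values were 8.39, 8.03 and 8.38 in mutants 1 to 3, against 9.83, 10.18 and 10.46 in controls 1 to 3. The lowest control stood 1.44 above the highest mutant. The change was -1.89 ± 0.14 (95% interval -2.21 to -1.57, limma adjusted p = 0.000944), or between 2.96-fold and 4.63-fold lower in mutants. By size it was the fall of rank 4 among all 19938 genes, passed or not. Litter 1 showed the smallest difference, -1.44, beside -2.15 in litter 2 and -2.08 in litter 3. Control 1 was the lowest of the controls for Bmp5, for Bmp2 and for Bmp4.

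Bmp7, of the same subgroup as Bmp5, had 7.10, 7.27 and 7.06 in mutants 1 to 3 and 7.59, 7.49 and 7.45 in controls 1 to 3. The mutants were lower in each litter and the groups did not overlap, with 0.178 between them. The difference of -0.37 ± 0.09 (95% interval -0.57 to -0.16) did not pass after adjustment over all genes (limma adjusted p = 0.0671). It did pass in a limma fit that took the litter as a random block (adjusted p = 0.0444) and in one that left out the dimmest 30% of genes (adjusted p = 0.0474). Here control 1 was the highest control, unlike for Bmp5, Bmp4 and Bmp2.

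Bmp6, the remaining member of that subgroup and best known for iron sensing in liver, had 7.55, 7.60 and 7.59 in mutants 1 to 3, against 7.64, 7.68 and 7.63 in controls 1 to 3. The values of each group lay within a narrow band (SD 0.0249 in mutants and 0.0296 in controls, n = 3 each). The difference was -0.07 ± 0.08 and did not pass (limma adjusted p = 0.795). Its 95% interval of -0.25 to 0.11 leaves out a change of the size seen for Bmp5, Bmp4 or Bmp2.

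Bmp3, the divergent member, which binds type II activin receptors and opposes other BMPs in bone, was the 1 member with higher values in mutants. It had 8.88, 9.08 and 8.88 in mutants 1 to 3, against 8.81, 8.81 and 8.70 in controls 1 to 3. The mutants were higher in each litter, yet the nearest points were 0.0687 apart. The difference of 0.17 ± 0.08 (95% interval -0.02 to 0.37) did not pass (limma adjusted p = 0.402).

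In order of change, the members ran Bmp5, Bmp4, Bmp2, Bmp7, Bmp6 and Bmp3. The change of Bmp5 was more negative than that of Bmp4 in each of 3 litters, by a mean of 0.85 on the log2 scale, and their 95% intervals did not overlap. Bmp4 and Bmp2 could not be ordered, since their litter ranges overlapped and Bmp4 had the more negative change in only 2 of 3 litters. Bmp2 and Bmp7 overlapped in the same way. These differences between members were not tested. Within the subgroup of Bmp5, Bmp6 and Bmp7 the changes thus ran between -1.89 and -0.07, a wider span than between Bmp4 (-1.04) and Bmp2 (-0.86).

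**Figure D2:**
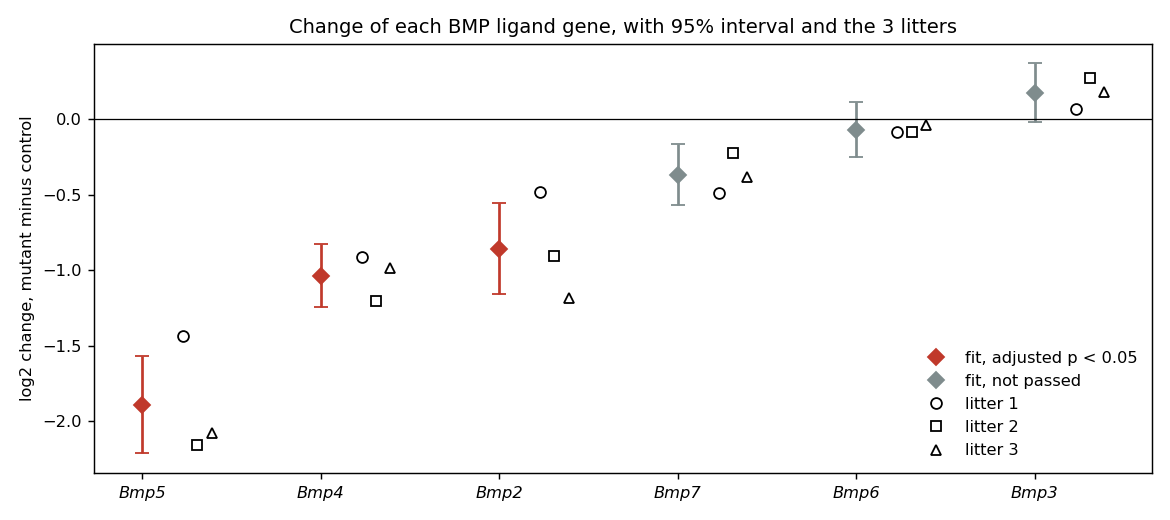
Log2 change, mutant minus control (y axis), of each BMP ligand gene, ordered by size; diamonds with bars are the limma estimate and its 95% interval (red where the gene passed), and open symbols are the differences within the 3 litters. Bmp5 (-1.89), Bmp4 (-1.04) and Bmp2 (-0.86) passed, and the litters of Bmp2 are the most spread of these relative to its change.

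The promoter windows of the members were set side by side because some ligand genes fell together with hedgehog targets and others did not pass. RefSeq sequences on build GRCm38.p6 were at hand for 3 of the 6 members, Bmp5, Bmp4 and Bmp6, and the 250 bases before each annotated start are given 5′ to 3′ on the strand of the gene. They lie at chr9:75775115-75775364 (+ strand) for Bmp5, chr14:46390670-46390919 (- strand) for Bmp4 and chr13:38345466-38345715 (+ strand) for Bmp6. Capitals mark a match, on either strand, to the core of the GLI motif.
Bmp5: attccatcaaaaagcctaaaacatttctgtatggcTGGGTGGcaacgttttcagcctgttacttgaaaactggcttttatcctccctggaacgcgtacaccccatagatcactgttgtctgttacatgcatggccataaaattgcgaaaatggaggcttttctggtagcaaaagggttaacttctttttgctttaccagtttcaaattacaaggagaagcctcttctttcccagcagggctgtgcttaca
Bmp4: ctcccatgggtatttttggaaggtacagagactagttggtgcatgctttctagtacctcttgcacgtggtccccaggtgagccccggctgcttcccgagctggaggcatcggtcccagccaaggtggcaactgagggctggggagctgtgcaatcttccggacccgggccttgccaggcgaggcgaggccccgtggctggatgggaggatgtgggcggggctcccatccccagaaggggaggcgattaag
Bmp6: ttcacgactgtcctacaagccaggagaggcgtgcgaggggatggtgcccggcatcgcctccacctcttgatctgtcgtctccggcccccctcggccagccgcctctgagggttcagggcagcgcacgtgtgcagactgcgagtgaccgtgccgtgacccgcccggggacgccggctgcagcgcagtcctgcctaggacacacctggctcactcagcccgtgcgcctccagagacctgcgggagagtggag

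Motifs known for GLI and forkhead factors were looked up on both strands of these windows. The full GLI consensus TGGGTGGTC had 0 matches in each, and 0.225% of 32851 RefSeq promoter windows of the same length held it. Its core TGGGTGG, which lies within the full consensus, had 1 match in the Bmp5 window, beginning 215 bases before the start on the strand of the gene, and 0 matches in those of Bmp4 and Bmp6. Of all windows 8.11% held this core. The forkhead motif TGTTTAC had 0 matches in each of the windows, against 3.17% of all windows. The windows also differed in base composition, with 42.8% G and C for Bmp5, 63.2% for Bmp4 and 68.8% for Bmp6, where the median window had 52.4%. A match to a motif is only a description of the sequence, and a missing match says only that these letters are not in these windows.

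For each member that fell, the genes with the most similar values over the 6 arrays were looked up. Likeness was the root mean square distance between values centred on each gene's own mean, in log2 units, so it depends on the size of the change as well as on its shape. The closest genes to Bmp5 were Hhip (distance 0.174), Col6a4, a collagen VI chain gene (0.202), and Ptch1 (0.272). The hedgehog targets Hhip and Ptch1 ranked 2 and 12 among all genes by size of fall, beside rank 4 for Bmp5. Few genes fell by so much, so their closeness to Bmp5 largely restates the size of their changes. Hhip had 6.50, 6.33 and 6.42 in mutants 1 to 3, against 8.32, 8.44 and 8.96 in controls 1 to 3. The closest genes to Bmp4 were Plau, which encodes the protease urokinase (0.0686), Arhgap28 (0.0726), and Pitx1, a homeobox factor gene (0.0736). Pitx1 had 7.85, 7.65 and 7.70 in mutants, against 8.68, 8.68 and 8.74 in controls. The closest genes to Bmp2 were Adgrl3, a latrophilin adhesion receptor gene (0.0851), Dnase1l3, a secreted DNase gene (0.0862), and Nckap5 (0.104). The 9 genes all fell in the same fit, with limma adjusted p between 0.000493 and 0.0378. Their choice by closeness to a member that fell largely fixed this beforehand, so it is not a separate result. Bmp4 and Bmp2 were closer to each other (0.176) than either was to Bmp5 (0.456 for Bmp4 and 0.527 for Bmp2). Members that did not pass had smaller distances still, Bmp3 and Bmp6 at 0.137 and Bmp6 and Bmp7 at 0.166. Bmp3 was higher and Bmp6 lower in each litter, so their small distance reflects small changes and not a shared direction. These likenesses describe 6 arrays in groups of 3 and were not tested.

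**Figure D3:**
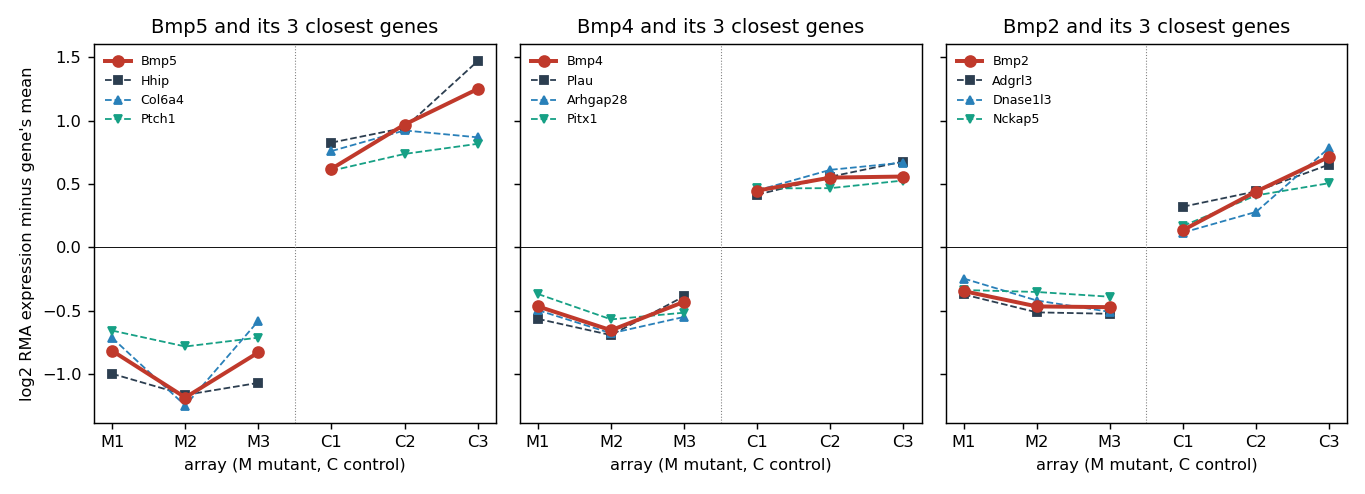
Log2 RMA expression minus the gene's mean over 6 arrays (y axis) in mutant arrays M1 to M3 and control arrays C1 to C3 (x axis), for Bmp5, Bmp4 and Bmp2 (red) and the 3 genes closest to each by root mean square distance. The Bmp5 panel holds the hedgehog targets Hhip and Ptch1, and Ptch1 spans a smaller range (change -1.44) than Bmp5 (-1.89).

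None of the other ligand genes measured in the BMP and GDF branch passed. Of 12 measured, 0 rose and 0 fell in the limma fit, and their changes ran between -0.20 for Bmp8a and 0.23 for Gdf6, with a median of 0.05. At an unadjusted p under 0.05, 1 of them was lower (Bmp8a) and 1 higher (Gdf6). The median over the 6 BMP ligand genes was -0.61, and over all genes it was 0.01. Of the 12, 5 were among the dimmest 30% of genes on the array, while 0 of the 6 BMP ligand genes were. Bmp1, whose name is misleading because it encodes a metalloprotease that cuts procollagen and chordin, stood at -0.16 and did not pass.

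Among 7 genes for proteases that act on BMP precursors or on chordin, 1 fell and 0 rose. Pcsk6, a furin-like convertase, fell by 0.52 ± 0.09, with lower values in the mutant of each of 3 litters (limma adjusted p = 0.0202). Without the litter block its adjusted p was 0.0513, and without litter 2 it was 0.0563. Furin itself stood at 0.01.

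Among 10 genes of receptors and co-receptors, 1 passed as lower and 0 as higher, with a median of -0.20. The 1 that fell was Acvrl1, the type I receptor ALK1 of blood vessels, by 0.50 ± 0.10 (limma adjusted p = 0.0308), and its adjusted p was 0.0810 without litter 1 and 0.0541 without litter 2. Bmpr1a and Bmpr2, the widely expressed type I and type II receptors, stood at -0.09 and -0.23 and did not pass. Of the 4 Smad genes that carry the signal, 0 rose and 0 fell. Smad1, Smad5 and Smad9 lay between -0.10 and -0.01, and Smad4 stood at 0.35 (limma adjusted p = 0.0604), the 1 gene of the 4 with an unadjusted p under 0.05.

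Genes that BMP signalling induces were lower in several cases. Of 10 measured, 4 fell, 0 rose and 6 did not pass, with a median change of -0.40, beside 2.11% of all genes that fell. Id4 had a measured mean of 9.43 ± 0.138 in mutants and 10.16 ± 0.115 in controls (SD, n = 3 each; limma adjusted p = 0.00910). Smad6, an inhibitory Smad of the feedback loop, fell by 0.56 ± 0.08 (adjusted p = 0.0123). Id1 and Id2, which encode inhibitors of helix-loop-helix factors, fell by 0.57 ± 0.11 and by 0.46 ± 0.08 (limma adjusted p = 0.0279 and 0.0283). Without litter 3 the adjusted p was 0.0916 for Id1 and 0.160 for Id2. Id3 had 6.77, 6.94 and 6.88 in mutants 1 to 3, against 7.75, 7.24 and 7.17 in controls 1 to 3, and did not pass (limma adjusted p = 0.0967). Msx1 and Msx2, homeobox genes that BMPs induce in many embryonic tissues, stood at -0.04 and -0.01. Bambi, at 0.12, was the 1 response gene with a change above 0. Marker lists of cell types, described below, had median changes of similar size to the falls of Id1, Id2 and Smad6. The medians were -0.47 for subepithelial mesenchyme, -0.55 for smooth muscle and -0.52 for blood endothelium. The part of these cell types in the response genes was not tested.

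Of 17 secreted antagonists and modulators, 3 rose and 3 fell, with a median of -0.05. The rises were in Mgp (1.58 ± 0.17), whose matrix protein binds Bmp2 and Bmp4, in Chrdl2 (1.5 ± 0.16), a chordin-like BMP binder, and in Grem1 (0.50 ± 0.09), which binds Bmp2, Bmp4 and Bmp7 (limma adjusted p = 0.00408, 0.00362 and 0.0225). The falls were in Chrdl1, another chordin-like gene (-0.65 ± 0.14), in Fstl1, a follistatin-like gene (-0.52 ± 0.08), and in Twsg1, a chordin and BMP binder (-0.49 ± 0.08), with limma adjusted p = 0.0446, 0.0171 and 0.0187. The calls of Grem1 and Chrdl1 depended on the litter block (adjusted p = 0.0600 and 0.0694 without it). Grem1 did not pass without litter 1 (0.0545) or litter 3 (0.0871), and Chrdl1 and Twsg1 did not pass without litter 3 (0.105 and 0.0610). Nog, noggin, stood at -0.23 and did not pass.

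**Figure D4:**
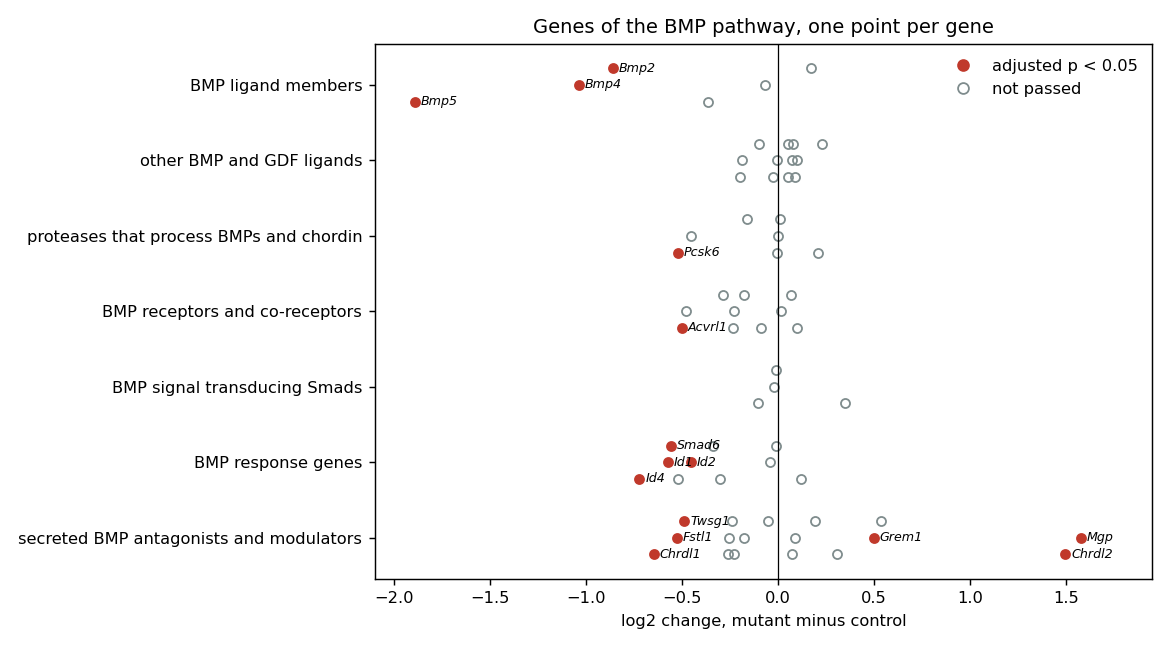
Log2 change, mutant minus control (x axis), of the measured genes in 7 lists of the BMP pathway, 1 point per gene; filled red points are genes with limma adjusted p under 0.05, and vertical offsets only separate points. Bmp5, Bmp4 and Bmp2 lie at the far left, other ligands lie between -0.20 and 0.23, and antagonists extend to both sides.

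Markers of some cells of the gut wall were also lower in mutants, and in whole tissue fewer cells of a type and less RNA per cell cannot be told apart. The list of 10 genes of subepithelial mesenchyme held 6 falls and 1 rise, and its mean log2 level was 9.19 to 9.40 in mutants and 9.75 to 9.78 in controls. Of these genes 3 are also in the hedgehog list, and without them the list held 3 falls and 1 rise among 7. The falls shared with the hedgehog list were Foxf2 (-1.24), Foxf1 (-0.74) and Foxl1 (-0.49), mesenchymal forkhead factors. The other falls were in Wnt5a (-0.69), a mesenchymal ligand gene, Postn (-0.57), the matrix protein periostin, and Pdgfra, and the rise was in F3 (0.43), the gene of tissue factor. Ednrb (-0.28), Tnc (-0.45) and Vim (-0.23) did not pass. Pdgfra, the receptor gene that marks BMP-producing subepithelial cells, fell by 0.42 ± 0.08 (limma adjusted p = 0.0339). Of 12 smooth muscle genes 8 fell and 0 rose, with mean levels of 10.45 to 10.90 in mutants and 11.18 to 11.25 in controls. Of 8 blood endothelium genes 6 fell and 0 rose, with mean levels of 8.09 to 8.23 in mutants and 8.47 to 8.76 in controls. Of 12 epithelial genes 1 rose, Krt18, and 0 fell, with mean levels of 11.12 to 11.25 in mutants and 11.13 to 11.20 in controls. Unadjusted p was under 0.05 for 1 lower epithelial gene, Krt20, and for 1 higher, Krt18. Krt20 (-0.43) had every mutant below every control and did not pass (limma adjusted p = 0.0837). No marker was at 0, and the lowest value on any array was 2.06.

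Litter by litter, the markers and the ligand genes differed in size. The median change of the mesenchyme list was -0.52, -0.47 and -0.49 in litters 1 to 3, and Bmp4 and Bmp5 had more negative changes than it in each litter. Bmp2 did so in litters 2 and 3 and not in litter 1. Of the mesenchyme genes, Foxf2 changed by -1.54, -1.15 and -1.03 in litters 1 to 3, more than Bmp4 in litters 1 and 3. The smooth muscle median was -0.76, -0.54 and -0.32 in litters 1 to 3, most negative in litter 1. Bmp2, Bmp4 and Bmp5 had their smallest differences in that litter. The endothelial median was -0.36, -0.48 and -0.55 in litters 1 to 3, and so was also smallest in litter 1. The part of these cell types in the changes of the ligand genes and of the BMP response genes was not tested.

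**Figure D5:**
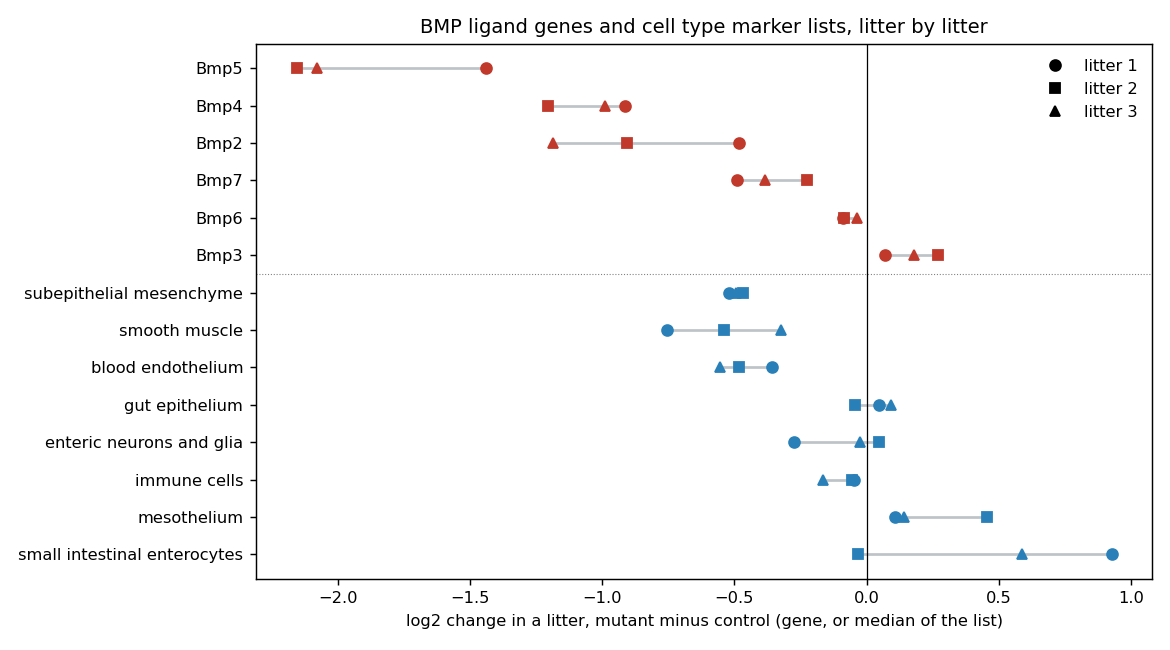
Log2 change within each litter, mutant minus control (x axis), of the BMP ligand genes (red) and the median change of cell type marker lists (blue); symbols mark litters and grey lines join the lowest and highest. The mesenchyme, smooth muscle and endothelium medians lie between -0.76 and -0.32, Bmp5 lies at -1.44 or below in each litter, and Bmp6 and Bmp3 lie near 0.

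Other contents of the dissected tissue were checked in the same way. Of 7 immune genes 2 rose and 0 fell, Itgam, an integrin of myeloid cells, by 0.52 and S100a8, a neutrophil calprotectin gene, by 1.52. S100a8 was among the dimmest 30% of genes. At an unadjusted p under 0.05, 2 of the immune genes were lower and 2 higher. The lower ones, Adgre1 (-0.43) and Csf1r (-0.38), did not pass (limma adjusted p = 0.0641 and 0.0670). Of 7 neuron and glia genes, 4 mesothelium genes and 4 pancreatic acinar genes, 0 passed in either direction in the limma fit, and 2 mesothelium genes, Wt1 and Lrrn4, were higher at an unadjusted p under 0.05, beside 0 of the neuron, glia and acinar genes. Of 6 small intestinal enterocyte genes 1 rose (Fabp2, a fatty acid binding protein gene, by 0.73), with mean levels of 7.97 to 8.37 in mutants and 7.49 to 7.90 in controls. At an unadjusted p under 0.05, 3 of the 6 were higher, Fabp2, Apoa4 (1.19) and Fabp6 (1.07). Apoa4 and Fabp6 did not pass (limma adjusted p = 0.108 and 0.171). Of 5 colon identity genes 1 fell, Car4, a carbonic anhydrase of surface colonocytes (-1.40). Unadjusted p was under 0.05 for 2 lower genes, Car4 and Hoxa13 (-0.29), and for 2 higher, Car1 and Slc26a3 (0.51). Hoxa13 and Slc26a3 did not pass (limma adjusted p = 0.196 and 0.0755). Car1, a carbonic anhydrase typical of colon, had 13.09, 12.80 and 13.17 in mutants 1 to 3, against 12.63, 12.46 and 12.06 in controls 1 to 3 (limma adjusted p = 0.0570). The part of these in the values of the BMP ligand genes was not tested.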

How the data were processed

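The deposited table held log2 expression values of 6 arrays, made by the authors with RMA (background correction, quantile normalization and probe summary), per the submitters' processing notes, with version and genome build not given in the sources used here. It had 35557 rows, array medians of 7.10 to 7.14 and 0 further columns of per-sample values. The number of arrays, 3 per group, limits precision. Rows with 1 gene symbol in the 2016 platform annotation (21789) were used, 1621 with several and 12147 unnamed ones were not, and the row with the highest mean was kept for each of 19938 genes. Entrez identifiers of 21698 rows matched RefSeq (GRCm38.p6) and changed 0 symbols.

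Mutant was compared with control in limma 3.58.1 (R 4.3.3; lmFit and eBayes, litter as fixed block, two-sided, Benjamini-Hochberg over all genes, adjusted p under 0.05); errors beside changes are SE. The block rests on the design text, which names littermates; deviations of littermates correlated by only 0.0128, 0.00516 and 0.0613. Residual degrees of freedom were 2 and the shared prior added 5.85. The code was tested on simulated data. Members, lists and motifs were chosen with earlier results of these data known. The genes named were the members, Ihh, Ptch1, Gli1 and Hhip, the BMP pathway genes that passed, up to 4 passing genes of other lists, and the 3 closest genes of each member that fell, without predicted and receptor-cluster genes; others were named after their values were seen. Alternatives were 10: no block, a random block, another variance model, a filter on dim genes, quantile normalization, median centring, the mean of a gene's rows, and each litter left out.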

Additional observations from a re-analysis of the deposited data

How the results depend on the processing

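The calls for Bmp5, Bmp4 and Bmp2 held under all 10 alternatives, with changes of -2.12 to -1.76, -1.10 to -0.95 and -1.05 to -0.69 and with limma adjusted p of at most 0.00131, 0.00443 and 0.0170. Bmp3 and Bmp6 did not pass under any of them. Bmp7 passed under 2, the random litter block and the filter that drops the dimmest 30% of genes; its change was -0.37 in both and its adjusted p ran between 0.0444 and 0.256 over the 10. Without the litter as a replicate block, 638 genes passed, Bmp2 had adjusted p = 0.0106, Pcsk6, Grem1 and Chrdl1 no longer passed, and the call of no other gene examined under the alternatives changed. Fits with a litter left out keep fewer residual degrees of freedom and lean more on the shared prior. Their adjusted p was in some cases smaller than in the full fit, as for Bmp5 without litter 2 (limma adjusted p = 3.63e-07 beside 0.000944). The prior of those fits was not examined, so the reason was not checked. The count of genes past the threshold was 751, and 546 to 798 with a litter left out. The split of these genes was 421 lower and 330 higher, but 347 lower and 359 higher after median centring, and 395 lower and 403 higher without litter 2. Chrdl1 also missed the threshold with the litter as a random block, after quantile normalization and after median centring (adjusted p = 0.0541, 0.0541 and 0.0535). No direction of a member changed. The 10 alternatives were not all separate checks of the members. Each member had 1 row, so the mean of a gene's rows left its values as they were. The choice of block, the variance model and the filter on dim genes also left the change itself the same, -0.86 for Bmp2. They could alter only its error and adjusted p. The values had already been quantile normalized in RMA. Changes of the members moved only with normalization, median centring or a litter left out. Signal over background was not measured in the deposited values, which limits the size of changes in dim genes.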
